A study of Mus musculus with 20 samples.

Results

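The planar cell polarity genes described here are 10 genes of the non-canonical Wnt route that shapes the outflow tract of the heart: the ligands Wnt5a and Wnt11, the receptors Ror1 and Ror2, and the core polarity genes Vangl1, Vangl2, Celsr1, Prickle1, Prickle2 and Dvl2. They were taken by name from a table of 48795 genes, and all 10 were among the 15304 genes that passed a filter on low values, set at an average normalized count of 10 over all hearts. Prickle2 joined the list because its values were higher than WT in both mutant genotypes, so its differences from WT are given as a description with no test. The other 9 genes entered by their known role, at a time when earlier results of these data were known.

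RNAseq was carried out on mRNA of 20 whole mouse hearts at embryonic day 13.5 (E13.5), on a C57BL/6J background. The 10 WT littermate hearts carried no engineered allele. The 5 Dp1Tyb hearts carried Dp(16Lipi-Zbtb21)1TybEmcf, a duplication of the part of mouse chromosome 16 that matches much of human chromosome 21. The 5 Dp1TybDyrk1a+/+/- hearts carried the same duplication together with 1 Dyrk1a tm1Mla null allele, so that 2 of their 3 copies of this kinase gene were intact. Both alterations are present in every cell from conception, each heart is 1 embryo, and the labels do not say which WT heart was a littermate of which mutant.

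Planar cell polarity aligns cells within the plane of a tissue. On one side of each cell Vangl and Prickle proteins gather at the membrane, on the other Frizzled receptors and Dishevelled proteins, and the atypical cadherin Celsr bridges the neighbours. Wnt5a and Wnt11 feed into this system through Ror and Frizzled receptors and act on the cytoskeleton and on Jun kinases rather than through beta-catenin. In the embryo, progenitors of the second heart field use these genes while they are added to the outflow tract, and their loss is known to cause misalignment of the great arteries.

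The genes lie on 9 chromosomes of GRCm38.p6, and none lies on the duplicated chromosome 16. Among the ligands, Wnt5a lies at chr14:28504543-28527448 and Wnt11 at chr7:98835084-98854747. The receptor genes lie at chr4:100095791-100444806 (Ror1) and chr13:53109317-53286124 (Ror2). Of the core genes, Prickle2 lies at chr6:92370891-92706334, Prickle1 and Celsr1 share chromosome 15, and Vangl1, Vangl2 and Dvl2 lie on chromosomes 3, 1 and 11. The values cover the exons of a gene as 1 total.

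Values are log2 normalized counts, on which a difference of 1 would be a doubling, except that low genes are drawn towards their mean. Cardiomyocyte markers were high in all hearts, with a mean log2 value over 8 genes between 14.84 and 15.26, whereas the skeletal muscle genes Myod1, Myf5 and Pax7 and the outflow ligand Fgf8 lay below the filter on low values. Dyrk1a had a log2 value of 11.37 ± 0.04 (SD, n = 10) in WT, 11.69 ± 0.04 (n = 5) in Dp1Tyb and 11.76 ± 0.06 (n = 5) in Dp1TybDyrk1a+/+/- hearts. It was thus higher in both duplication genotypes, and a gene total that can include transcript of the null allele does not check that allele. A pair of hearts stood apart from the rest. The Dp1TybDyrk1a+/+/- replicate 2 heart differed from the median of the other hearts by a median of 0.14 log2 units in either direction, over genes with an average normalized count of 100 or more, and WT replicate 6 by 0.080, against 0.030 to 0.047 in the other 18. These same hearts had the highest mean log2 value of 15 mitochondrial transcripts, 15.68 and 15.27, against 14.98 or less elsewhere.

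Compared per kilobase of exon, Wnt5a was the most abundant of the 10 genes in WT hearts with 265 ± 10.4 (SD, n = 10) normalized counts per kb, and Wnt11 was the least abundant with 52.1 ± 2.29. Ror1 and Ror2 followed Wnt5a with 223 ± 12.5 and 221 ± 9.94 normalized counts per kb, and their WT hearts overlapped. Below them came Prickle1 at 127 ± 3.59, Vangl2 at 114 ± 2.33 and Prickle2 at 97.1 ± 2.79 normalized counts per kb, each separated from its neighbours in every WT heart. Dvl2, Vangl1 and Celsr1 had 86.0 ± 2.97, 81.0 ± 2.36 and 80.2 ± 5.71 normalized counts per kb, and neighbours among these overlapped. With the longest transcript in place of all exons, Prickle2 took rank 8 instead of 6, Vangl1 rank 6 instead of 8, and Ror1 and Ror2 changed places at ranks 2 and 3.

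**Figure D1:**
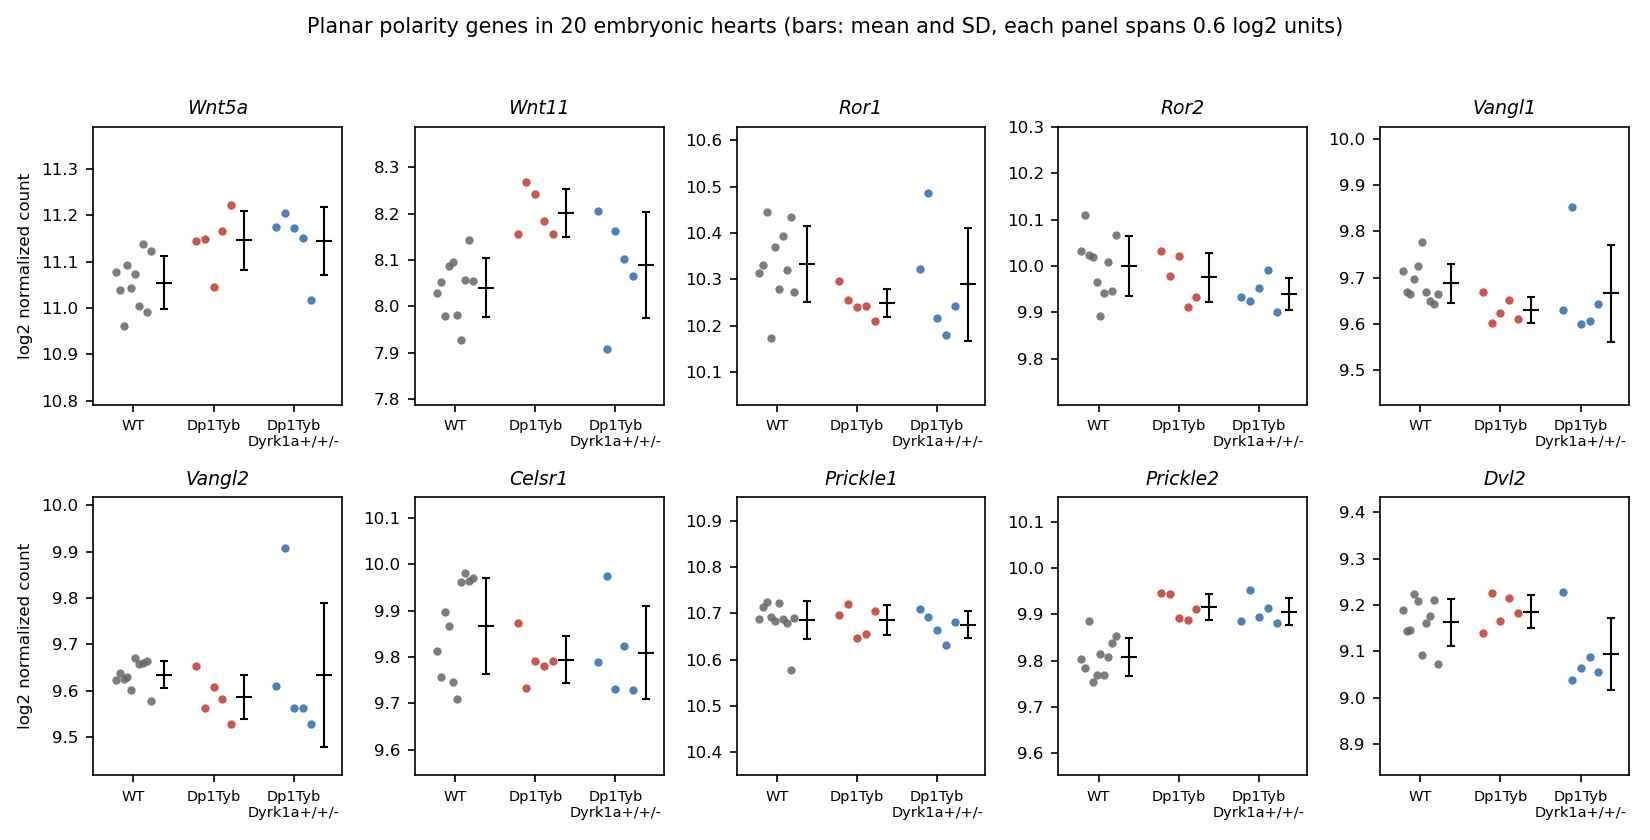
Log2 normalized count of each of the 10 genes (vertical axis, 0.6 log2 units in every panel) in WT (grey, n = 10), Dp1Tyb (red, n = 5) and Dp1TybDyrk1a+/+/- hearts (blue, n = 5). Each point is 1 heart in order of replicate number and the bars give mean and SD; for Wnt11 and Prickle2 every red point lies higher than every grey point, and 1 Dp1TybDyrk1a+/+/- heart stood far above its group for Vangl1 and Vangl2.

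Comparing Dp1Tyb with WT hearts asks which of these genes respond to the whole duplication. Of the 9 genes tested, 1 passed the limma threshold of an adjusted p under 0.05 over all genes, against 3.08% of all genes tested, and this gene was Wnt11. It rose by 0.16 on the log2 scale, a 1.12-fold difference. At an unadjusted p under 0.05, the 9 genes held 2 genes, Wnt11 and Wnt5a, where 15.6% of all genes passed. Comparing Dp1TybDyrk1a+/+/- with WT hearts asks which differences are present when only 2 intact copies of Dyrk1a remain, and here 0 of the 9 genes passed limma's threshold, against 0.712% of all genes. Wnt5a and Dvl2 had an unadjusted p under 0.05 in this comparison, 2 genes, where 9.64% of all genes passed.

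The direct comparison of Dp1Tyb with Dp1TybDyrk1a+/+/- hearts asks which levels differ with the third intact copy of Dyrk1a. The paper kept Dp1TybDyrk1a+/+/- mice as a separate strain. In lane 7 of the sequencer were 3 of the 5 Dp1TybDyrk1a+/+/- hearts and 1 of the 5 Dp1Tyb hearts. The part of Dyrk1a dose in a difference cannot be told apart from that of strain and was not separated from lane here. None of the 9 genes passed, 0 against 1.16% of all genes, and 2 of them, Wnt11 and Dvl2, had an unadjusted limma p under 0.05, against 18.5% of all genes. When both duplication genotypes were set together against WT, the count was again 0, against 1.35% of all genes, with an unadjusted p under 0.05 for 2 genes, Wnt11 and Wnt5a, against 10% of all genes. The comparisons share hearts, the WT hearts in particular, and are not independent of each other.

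The median log2 difference over the 9 genes was -0.025 in Dp1Tyb and -0.021 in Dp1TybDyrk1a+/+/- hearts versus WT, and over all genes tested it was -0.0019 and -0.0030. Of the 9 genes, 3 lay above 0 in the former comparison and 2 in the latter. Without Dp1TybDyrk1a+/+/- replicate 2 the latter median was -0.057, again with 2 genes above 0. In both comparisons over all hearts, the ligands lay above 0 while Ror1, Ror2, Vangl1, Vangl2, Celsr1 and Prickle1 lay at or below it. In Dp1Tyb versus Dp1TybDyrk1a+/+/- 5 of the 9 lay above 0, with a median of 0.0018. Without Dp1TybDyrk1a+/+/- replicate 2 this was 9 of 9, with a median of 0.021. Of all genes tested 52.0% lay above 0 there, and 50.1% without that heart.

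**Figure D2:**
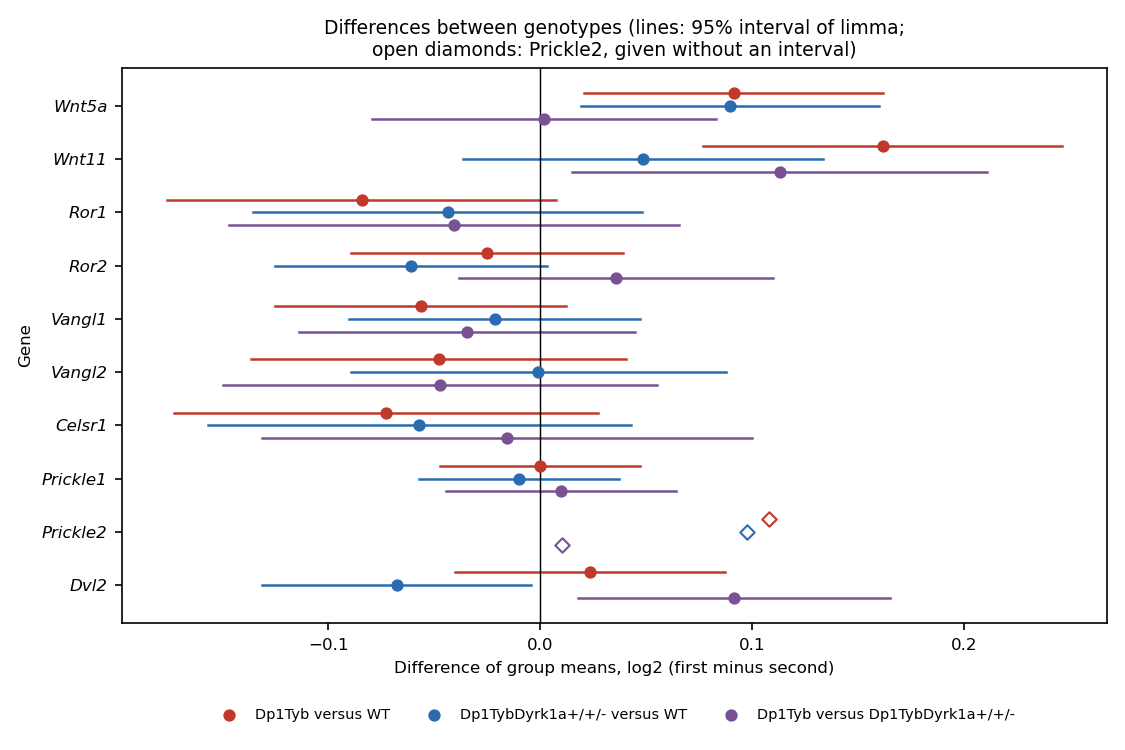
Difference of group means on the log2 scale (horizontal axis) for each of the 10 genes in 3 comparisons, with the 95% interval of limma as a line; Prickle2, which was chosen by its rise over WT, has open diamonds and no interval. The intervals of Wnt11 and Wnt5a in Dp1Tyb versus WT lay above 0, and the only adjusted p under 0.05 was that of Wnt11 in this comparison.

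Wnt11 encodes a secreted ligand that acts on cell movement and adhesion in heart progenitors. In WT hearts its log2 value had a lowest value of 7.93, a median of 8.05 and a highest value of 8.14. In the 5 Dp1Tyb hearts it was 8.16, 8.27, 8.24, 8.18 and 8.16, so that every Dp1Tyb heart exceeded every WT heart. Among all genes tested 2.63% had such a separation in either direction in this comparison, and among the 9 genes Wnt11 alone did.

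In Dp1TybDyrk1a+/+/- hearts Wnt11 had log2 values of 8.21, 7.91, 8.16, 8.10 and 8.07. Of these hearts 2 lay above all WT hearts and replicate 2, the heart that stood apart, lay below all of them. No gene of the 9 separated these hearts from WT, where 0.640% of all genes did, and none separated Dp1Tyb from Dp1TybDyrk1a+/+/- hearts, where 5.65% of all genes did.

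The Wnt11 difference in Dp1Tyb versus WT was 0.16 ± 0.041 (SE) with an adjusted p of 0.032 by limma, and within lanes 3, 6 and 7 of the sequencer it was 0.16, 0.19 and 0.10. In Dp1TybDyrk1a+/+/- versus WT it was 0.048 with a 95% interval of -0.036 to 0.13 and an adjusted p of 0.72, and 0.094 without replicate 2 (adjusted p = 0.28). Directly compared, Dp1Tyb exceeded Dp1TybDyrk1a+/+/- by 0.11 with an interval of 0.015 to 0.21 (adjusted p = 0.20), and by 0.068 without replicate 2 of the latter (adjusted p = 0.39), so a difference between the genotypes did not pass the threshold.

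The Wnt11 call was sensitive to single hearts. The adjusted p rose to 0.11, 0.10 and 0.068 without Dp1Tyb replicate 2, 3 or 4, and to 0.054 and 0.051 without WT replicate 3 or 7, while the difference stayed between 0.14 and 0.17 in every such fit. With both duplication genotypes together the difference was 0.10 (adjusted p = 0.16), and without Dp1TybDyrk1a+/+/- replicate 2 it was 0.13 (adjusted p = 0.013).

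The Wnt11 promoter is shown because Wnt11 was the 1 tested gene past the threshold. RefSeq gives 2 start sites, and the one that opens the gene lies at chr7:98834862-98835161 of GRCm38.p6 (plus strand, 250 bases before to 50 after the start). Capitals mark a TATA box (TATAAA) and, before it, a TCF/LEF motif (CTTTGA, here on the opposite strand).

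Wnt11: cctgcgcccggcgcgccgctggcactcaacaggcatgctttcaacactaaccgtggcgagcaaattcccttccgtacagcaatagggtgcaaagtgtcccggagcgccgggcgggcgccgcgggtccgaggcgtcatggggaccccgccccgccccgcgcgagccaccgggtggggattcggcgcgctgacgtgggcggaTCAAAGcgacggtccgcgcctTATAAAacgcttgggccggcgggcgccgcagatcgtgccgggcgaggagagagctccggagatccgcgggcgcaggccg

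This window held 45 CpG dinucleotides and 71.3% GC, against a median of 7 and 52.7% over 32851 mouse promoter windows of 300 bases. A TATA box stood in 13.6% of all these windows and a TCF/LEF motif in 16%, on either strand. The other Wnt11 start held a match to an E2F motif (TTTNGCGC), which 1.38% of all windows had. A match is a string of letters and does not show binding, and the values here are 1 total per gene, so they do not tell which start was used.

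Prickle2 encodes a cytoplasmic LIM domain protein that binds Vangl at the membrane. In WT hearts its log2 value had a lowest value of 9.754, a median of 9.807 and a highest value of 9.885. In Dp1Tyb hearts it was 9.947, 9.944, 9.893, 9.887 and 9.911. In Dp1TybDyrk1a+/+/- hearts it was 9.885, 9.953, 9.895, 9.915 and 9.882. All 5 Dp1Tyb hearts and 4 of the 5 Dp1TybDyrk1a+/+/- hearts lay above the highest WT heart, WT replicate 3, although replicate 1 of the latter group did so by less than the last digit given.

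These values chose Prickle2, so they are given without a test. Its mean was 0.11 log2 units above WT in Dp1Tyb and 0.098 in Dp1TybDyrk1a+/+/- hearts, folds of 1.08 and 1.07. Within lanes 3, 6 and 7 the difference was 0.14, 0.071 and 0.12 in Dp1Tyb and 0.098, 0.063 and 0.090 in Dp1TybDyrk1a+/+/- hearts. With any 1 heart left out it stayed between 0.10 and 0.12 in the former and between 0.086 and 0.11 in the latter. Because these differences chose the gene, their steadiness over lanes and hearts is no support for them. The mutant genotypes differed from each other in Prickle2 by 0.010, and by 0.022 without Dp1TybDyrk1a+/+/- replicate 2, less than the SD of 0.028 and 0.029 within each.

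The Prickle2 promoter is shown because Prickle2 was chosen for its rise over WT in both genotypes. RefSeq gives it 4 start sites, of which the one that opens the gene lies at chr6:92706135-92706434 of GRCm38.p6 (minus strand). Capitals mark its 1 NFAT motif (GGAAA).

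Prickle2: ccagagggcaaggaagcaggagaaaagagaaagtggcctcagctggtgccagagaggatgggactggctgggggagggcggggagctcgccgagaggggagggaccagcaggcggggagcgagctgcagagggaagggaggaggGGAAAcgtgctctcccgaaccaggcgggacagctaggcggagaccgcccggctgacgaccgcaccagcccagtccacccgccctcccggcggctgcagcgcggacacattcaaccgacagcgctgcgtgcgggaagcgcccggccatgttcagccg

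NFAT motifs are common, and 61.3% of all promoter windows held 1 or more on either strand. The window had 25 CpG dinucleotides and 69.7% GC. The next Prickle2 start downstream held 4 CpG dinucleotides and 46.3% GC. Of the 10 genes, 7 had promoter entries in the RefSeq table, 12 entries in all, and no entry held the CHR motif (TTTGAA or TTCGAA) that 19.2% of all windows held.

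Wnt5a, the other ligand, is secreted by outflow mesenchyme and signals through Ror receptors. Its log2 value in WT hearts had a lowest value of 10.96, a median of 11.06 and a highest value of 11.137. In Dp1Tyb hearts it was 11.144, 11.15, 11.05, 11.17 and 11.22, and in Dp1TybDyrk1a+/+/- hearts 11.17, 11.20, 11.17, 11.15 and 11.02. In each mutant genotype 4 of the 5 hearts lay above all WT hearts, and the remaining heart lay within the WT range.

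Neither Wnt5a difference passed the threshold. It was 0.091 ± 0.034 (SE) in Dp1Tyb versus WT (adjusted p = 0.17 by limma) and 0.089 ± 0.034 in Dp1TybDyrk1a+/+/- versus WT (adjusted p = 0.38), with 95% intervals of 0.021 to 0.16 and 0.019 to 0.16. Both genotypes together gave 0.090 (adjusted p = 0.14), which passed only when Dp1TybDyrk1a+/+/- replicate 5, the lowest heart of its group, was left out (0.11, adjusted p = 0.036). The lanes differed in size, with 0.15, 0.068 and 0.014 in lanes 3, 6 and 7 for Dp1Tyb versus WT and 0.14, -0.023 and 0.046 for Dp1TybDyrk1a+/+/- versus WT.

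Ror1 and Ror2 are receptor tyrosine kinases that bind Wnt5a. Ror1 ranged from 10.17 to 10.44 on the log2 scale in WT, from 10.21 to 10.29 in Dp1Tyb and from 10.18 to 10.48 in Dp1TybDyrk1a+/+/- hearts. Ror2 ranged from 9.89 to 10.11, from 9.91 to 10.03 and from 9.90 to 9.99. Groups overlapped for both receptors in every comparison.

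The Ror1 difference from WT was -0.084 in Dp1Tyb (95% interval -0.18 to 0.0076, adjusted p = 0.38 by limma) and -0.044 in Dp1TybDyrk1a+/+/- hearts (-0.14 to 0.048, adjusted p = 0.77). Without Dp1TybDyrk1a+/+/- replicate 2, whose Ror1 value was the highest of all 20 hearts, the latter was -0.093 (adjusted p = 0.32). The Ror2 differences from WT were -0.025 and -0.061 (adjusted p = 0.77 and 0.55).

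Vangl1 and Vangl2 are the membrane proteins around which the Prickle side of the polarity complex forms. Vangl2 had log2 values of 9.58, 9.63 and 9.67 as lowest, median and highest in WT hearts. In Dp1Tyb hearts it had 9.65, 9.56, 9.61, 9.58 and 9.53, and in Dp1TybDyrk1a+/+/- hearts 9.61, 9.91, 9.56, 9.56 and 9.53. Replicate 2 of the last group exceeded every other heart, and the remaining 4 lay below the WT median.

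Vangl1 showed the same heart apart. Its WT values had a lowest of 9.64, a median of 9.67 and a highest of 9.78, and its Dp1Tyb values were 9.67, 9.60, 9.62, 9.65 and 9.61. In Dp1TybDyrk1a+/+/- hearts it had 9.63, 9.85, 9.60, 9.61 and 9.64, with 4 hearts below and 1 above all WT hearts.

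Versus WT, Vangl1 differed by -0.056 in Dp1Tyb (adjusted p = 0.44 by limma) and -0.021 in Dp1TybDyrk1a+/+/- hearts (adjusted p = 0.85), and Vangl2 by -0.048 (adjusted p = 0.66) and -0.00088 (adjusted p = 0.996). Without Dp1TybDyrk1a+/+/- replicate 2 the latter difference of each gene was -0.068 and -0.069 (adjusted p = 0.20 for both). With both duplication genotypes together and that heart left out, the differences were -0.062 and -0.059 (adjusted p = 0.066 and 0.088). In lane 7, which holds that heart, the Dp1TybDyrk1a+/+/- differences were 0.029 and 0.058, and in lanes 3 and 6 they lay below 0.

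Celsr1, the atypical cadherin of the pathway, was the most variable of the 10 genes between WT hearts. Its log2 value ran from 9.71 to 9.98 in WT, from 9.73 to 9.87 in Dp1Tyb and from 9.73 to 9.97 in Dp1TybDyrk1a+/+/- hearts. In WT replicates 7 to 10 it was 9.96 to 9.98, and in the other WT hearts 9.71 to 9.90. Its SD of 0.10 between WT hearts was exceeded by 9.18% of all genes tested, whereas the SD of 0.030 of Vangl2 was exceeded by 91.7%, and the median SD of all genes was 0.054. The Celsr1 differences from WT of -0.073 in Dp1Tyb and -0.057 in Dp1TybDyrk1a+/+/- hearts were smaller than this SD (adjusted p = 0.52 and 0.72 by limma). Without Dp1TybDyrk1a+/+/- replicate 2, the highest heart of its group, the latter was -0.098 (adjusted p = 0.38). In sample order, WT replicates 1 to 5 stand with the Dp1Tyb hearts and WT replicates 6 to 10 with the Dp1TybDyrk1a+/+/- hearts. WT replicates 7 to 10 all fall in the latter set, and the labels do not say whether these sets are litters. Each mutant genotype was compared with all 10 WT hearts, and the part of the split among WT hearts in these differences was not tested.

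Prickle1, the closest relative of Prickle2, was level across genotypes to within a small interval. Its log2 value averaged 10.69 ± 0.042 (SD, n = 10) in WT, 10.69 ± 0.033 (n = 5) in Dp1Tyb and 10.68 ± 0.030 (n = 5) in Dp1TybDyrk1a+/+/- hearts. The 95% interval of the difference from WT was -0.047 to 0.047 in Dp1Tyb and -0.057 to 0.037 in Dp1TybDyrk1a+/+/- hearts (adjusted p = 0.998 and 0.901 by limma). Whether Prickle1 and Prickle2 differ in their response was not tested, since the values chose Prickle2.

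Dvl2, a Dishevelled protein that relays Frizzled signals into the cell, had log2 values of 9.07, 9.17 and 9.22 as lowest, median and highest in WT hearts. In Dp1Tyb hearts it had 9.14, 9.23, 9.17, 9.22 and 9.18, and in Dp1TybDyrk1a+/+/- hearts 9.23, 9.04, 9.06, 9.09 and 9.06. Replicate 1 of the last group was the highest of all 20 hearts by a narrow margin, and the other 4 lay below all Dp1Tyb hearts.

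Dp1Tyb exceeded Dp1TybDyrk1a+/+/- in Dvl2 by 0.091 ± 0.035 (SE), with a 95% interval of 0.018 to 0.16 and an adjusted p of 0.17 by limma. Without Dp1TybDyrk1a+/+/- replicate 1 the difference was 0.12 and passed the threshold (adjusted p = 0.046). It was -0.024 in lane 3, 0.14 in lane 6 and 0.077 in lane 7. Dvl2 shares 1504 of its 6664 exon bases, 22.6%, with Acadvl on the opposite strand, a gene with a mean normalized count of 1507. The strand setting of the counting is not given in the sources used here, so reads of both genes in that stretch may not be separated.

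**Figure D3:**
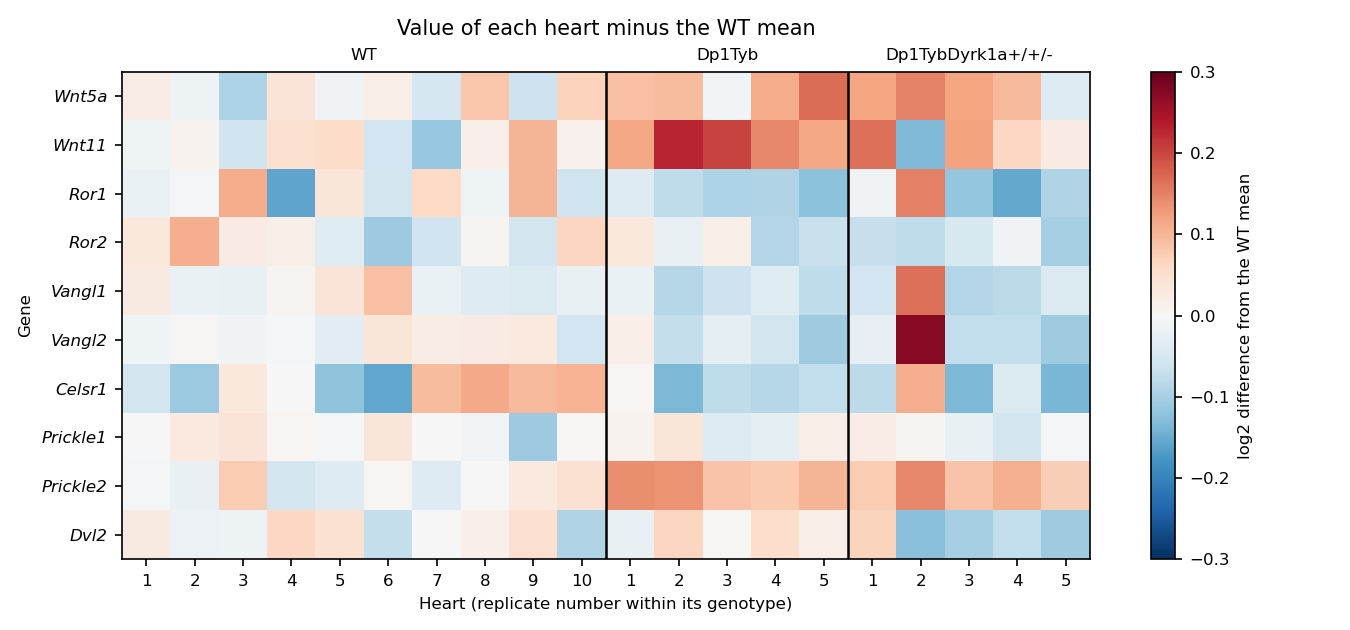
Log2 value of each heart minus the WT mean of that gene (colour, red above and blue below) for the 10 genes (rows) in 20 hearts (columns, by genotype and replicate number). The Prickle2 and Wnt11 rows are red in all 5 Dp1Tyb hearts, and Dp1TybDyrk1a+/+/- replicate 2 is red for Vangl1, Vangl2, Ror1 and Celsr1 and blue for Wnt11.

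The wider pathway was described by a list of 101 genes in 9 roles, of which 97 were tested and 87 were not among the 10. Of these 87, 1 passed in Dp1Tyb versus WT, 0 in Dp1TybDyrk1a+/+/- versus WT and 0 in Dp1Tyb versus Dp1TybDyrk1a+/+/-. The shares of all genes tested in these comparisons were the 3.08%, 0.712% and 1.16% given above. An unadjusted limma p under 0.05 was found for 6, 13 and 16 of the 87, where 15.6%, 9.64% and 18.5% of all genes had one. The gene that passed was Wnt4, another ligand, and with both duplication genotypes together it was again the 1 gene of the 87 to pass, and did so in 21 of 30 alternative fits.

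Wnt4 ran from 7.56 to 7.71 on the log2 scale in WT hearts, and the 5 Dp1Tyb hearts, at 7.77, 7.81, 7.81, 7.75 and 7.73, lay above all of them. Its difference in Dp1Tyb versus WT was 0.17 ± 0.031 (SE, adjusted p = 0.0031 by limma), and it passed in all 30 alternative fits. In Dp1TybDyrk1a+/+/- hearts Wnt4 had 7.61, 7.55, 7.74, 7.69 and 7.72, a difference from WT of 0.053 with an interval of -0.011 to 0.12 (adjusted p = 0.60), which was 0.080 without replicate 2. Dp1Tyb exceeded Dp1TybDyrk1a+/+/- by 0.11 in Wnt4 (0.040 to 0.19, adjusted p = 0.11).

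All 7 ligands tested had a mean above WT in Dp1Tyb hearts, with a median log2 difference of 0.087, and 2 of them, Wnt4 and Wnt11, passed. Of all genes tested 48.5% lay above 0 in this comparison and 3.08% passed. The other ligands that did not pass had differences of 0.087 for Wnt5b, 0.087 for Wnt9a, 0.058 for Wnt9b and 0.050 for Wnt7b, beside 0.091 for Wnt5a. In Dp1TybDyrk1a+/+/- versus WT 4 of the 7 ligands lay above 0, with a median of 0.036, and none passed, while without replicate 2 the median was 0.069 and 5 of 7 lay above 0. The lowest there was Wnt7b at -0.28 (-0.33 without replicate 2), followed by Wnt5b at -0.090 (-0.043). In Dp1Tyb versus Dp1TybDyrk1a+/+/- all 7 ligands lay above 0, with a median of 0.11, and none passed. Without replicate 2 this was 6 of 7 with a median of 0.068. Of all genes tested 52.0% lay above 0 in that comparison. Wnt7a lay below the filter on low values.

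Among 17 receptors none passed in any comparison, and the median log2 difference was -0.011 in Dp1Tyb and -0.044 in Dp1TybDyrk1a+/+/- hearts versus WT. Ptk7, a pseudokinase receptor of the planar polarity route, lay above all WT hearts and above all Dp1TybDyrk1a+/+/- hearts in the 5 Dp1Tyb hearts. Its differences were 0.11 (adjusted p = 0.23 by limma) and 0.17 (adjusted p = 0.098), and the latter was 0.12 without Dp1TybDyrk1a+/+/- replicate 2. The hearts that stood apart had the lowest Ptk7 values, 11.031 in that heart and 11.035 in WT replicate 6. The lowest Dp1Tyb heart, at 11.360, lay narrowly above the highest WT heart, at 11.354. Of the 87 genes, 2 separated Dp1Tyb from WT hearts, Wnt4 and Ptk7, against 2.63% of all genes. From Dp1TybDyrk1a+/+/- hearts 5 separated, Ptk7, Wnt5b, Smurf1 and Fjx1 above and Rhoa below, against 5.65% of all genes. Fzd2 differed by -0.011 from WT in Dp1Tyb and by -0.12 in Dp1TybDyrk1a+/+/- hearts, the latter being -0.076 without replicate 2. Fzd3, Fzd6, Fzd7 and Ryk differed by at most 0.056 in either direction over all hearts, and without replicate 2 Fzd7 differed by -0.10 and Fzd3 by -0.030 in Dp1TybDyrk1a+/+/- hearts.

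Among the 14 core genes, Prickle2 apart, none passed. Prickle3 and Prickle4 differed from WT by 0.00079 and 0.031 in Dp1Tyb and by 0.052 and 0.0049 in Dp1TybDyrk1a+/+/- hearts, where without replicate 2 they differed by 0.027 and -0.015. Celsr2 and Celsr3 differed by -0.031 and -0.010 in Dp1Tyb hearts, Dvl1 and Dvl3 by 0.038 and -0.0041, and the scaffold gene Scrib by 0.0058. Prickle4 and Celsr3 were low, with log2 values of 4.27 to 4.38 and 3.55 to 3.74 in WT hearts, so their differences may be understated. No gene passed among the 14 regulators, 14 cytoskeletal effectors, 6 tested Fat and Dachsous genes, 5 secreted antagonists, 12 outflow regulators and 8 tested readouts of the beta-catenin route. Of the effectors, the formin Daam1 differed by -0.061 in Dp1Tyb and 0.060 in Dp1TybDyrk1a+/+/- hearts versus WT.

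**Figure D4:**
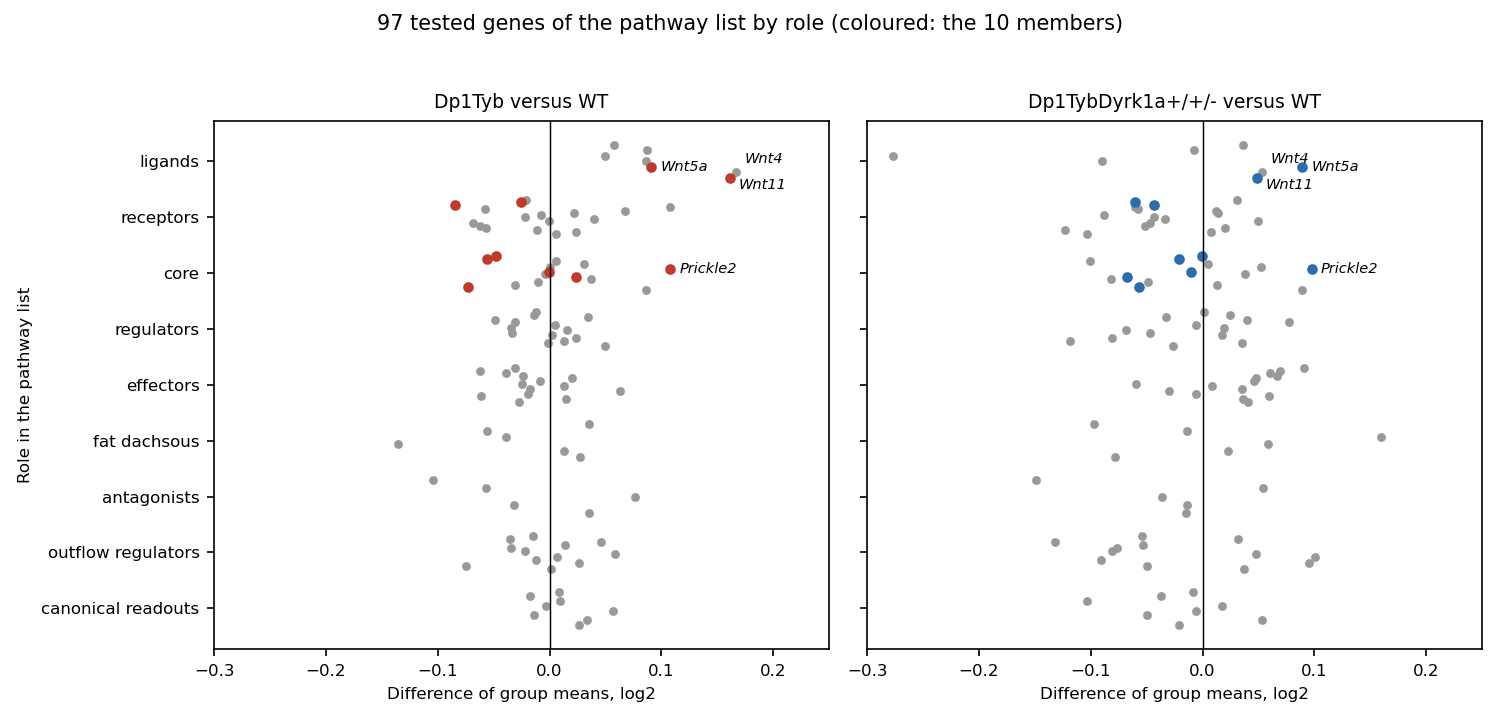
Log2 difference from WT (horizontal axis) of the 97 tested genes of the pathway list by role (vertical axis), in Dp1Tyb (left) and Dp1TybDyrk1a+/+/- hearts (right), each point 1 gene and coloured where it is 1 of the 10 described genes. All 7 ligands lie to the right of 0 on the left side and 4 of 7 on the right side, while the core genes spread on both sides of 0 with Prickle2 at their right edge.

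Whole hearts hold many cell types, and fewer cells of a type cannot be told apart from less RNA per cell. None of the marker genes of 10 lists passed in any comparison. All 7 mesenchyme markers lay above WT in Dp1Tyb hearts, with a median of 0.089, and their mean log2 value ran from 12.53 to 12.87 in WT, from 12.77 to 12.91 in Dp1Tyb and from 12.57 to 12.92 in Dp1TybDyrk1a+/+/- hearts. The 6 tested gut, lung and liver epithelium markers all lay below WT in Dp1TybDyrk1a+/+/- hearts, with a median of -0.11 (-0.17 without replicate 2) and hearts between 4.85 and 5.45, against 4.90 to 5.55 in WT and 4.95 to 5.36 in Dp1Tyb hearts. Of that list Sftpc was below the filter and Cdh1 and Epcam were present in every heart. All 6 endothelium markers lay above WT in Dp1TybDyrk1a+/+/- hearts, with a median of 0.067 (0.047 without replicate 2). In Dp1Tyb hearts 5 of them did, with a median of 0.032. Of the 8 cardiomyocyte markers, 7 lay above WT in Dp1TybDyrk1a+/+/- hearts (median 0.070) and 3 in Dp1Tyb hearts (median -0.072). Of all genes tested 47.4% and 48.5% lay above WT in these genotypes.

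Once genotype means were subtracted, correlations with the marker lists over the 20 hearts varied between the 10 genes, and some genes followed several lists. These correlations are descriptions of libraries that share cells, depth and processing. Ror1 followed the mesenchyme list with a Pearson r of 0.80 (0.72 without Dp1TybDyrk1a+/+/- replicate 2, n = 19) and the epithelium list with 0.80 (0.69). Vangl2 followed the same lists with 0.60 and 0.66, and smooth muscle with 0.66, which without that heart were 0.39, 0.43 and 0.27. With the outflow and second heart field list it had 0.65 (0.55 without that heart), and Ror1 had 0.72 (0.60). Dvl2 had an r of 0.45 with the mesenchyme list and 0.71 without that heart, and Wnt11 had -0.58 with the endothelium list and -0.55 without it. The endothelium list ran from 11.43 to 11.57 in WT, from 11.47 to 11.62 in Dp1Tyb and from 11.54 to 11.61 in Dp1TybDyrk1a+/+/- hearts. Wnt5a had 0.56 with the cardiomyocyte list and 0.55 with the endothelium list, and Prickle2 had -0.65 with the blood list. The part of these cell types in the differences between genotypes was not tested.

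**Figure D5:**
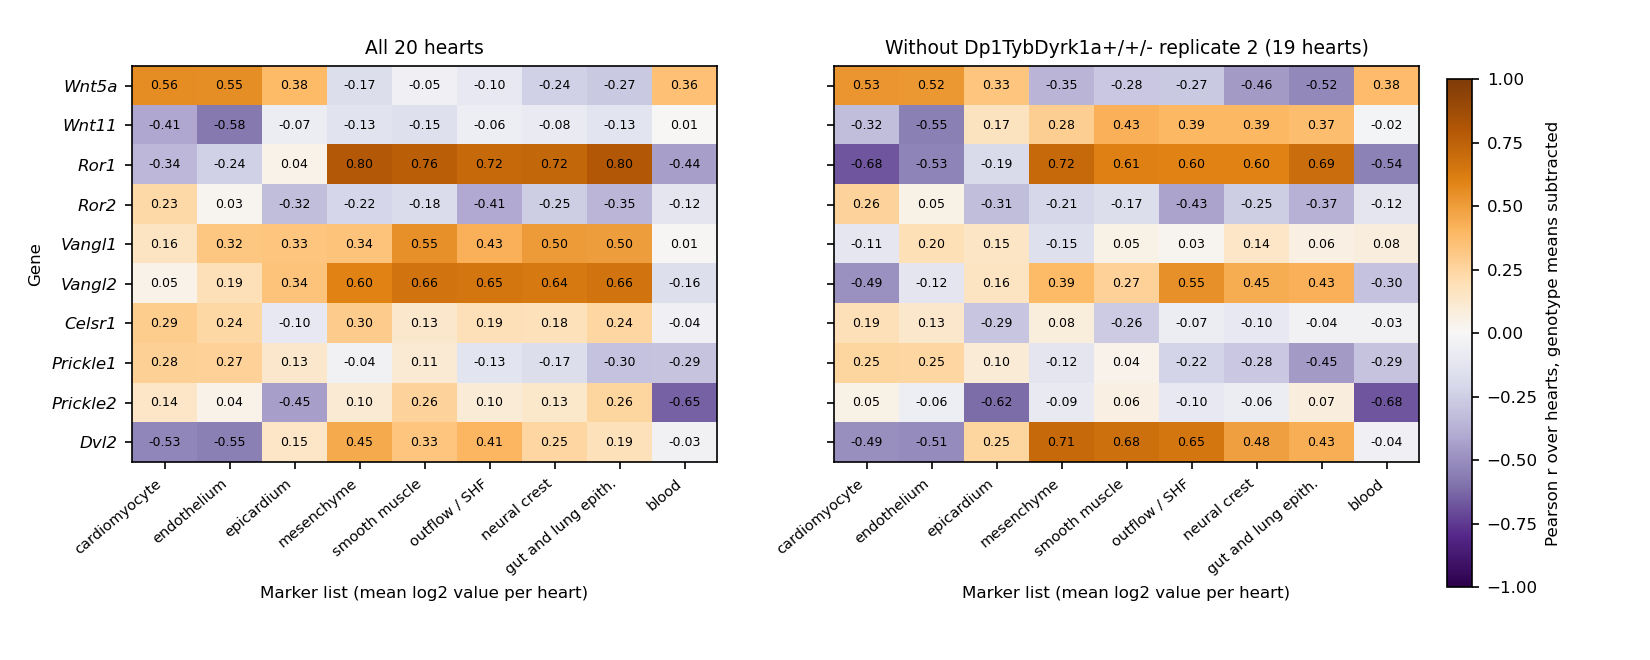
Pearson r (colour and number) between each of the 10 genes (rows) and the mean log2 value of 9 marker lists (columns) after genotype means were subtracted, over all 20 hearts (left) and over 19 hearts without Dp1TybDyrk1a+/+/- replicate 2 (right). Ror1 keeps 0.80 and 0.72 with the mesenchyme list and 0.80 and 0.69 with the epithelium list. Vangl2 goes from 0.66 to 0.27 with smooth muscle and from 0.65 to 0.55 with the outflow list.

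The 10 genes did not vary together from heart to heart. Over their 45 pairs the median r was 0.050, and 4 pairs exceeded 0.5, of which 1 did so without Dp1TybDyrk1a+/+/- replicate 2. Below -0.5 lay 2 pairs, Wnt11 with Vangl1 at -0.65 and with Vangl2 at -0.56, and without that heart 1 pair, Vangl1 and Celsr1 at -0.58. Vangl1 and Vangl2 went from 0.80 to 0.21 when that heart was left out, and the pair Wnt11 and Dvl2 from 0.59 to 0.56. Among all genes tested, the gene most like Prickle2 was Oxct1as, with an r of 0.83 over 20 hearts. Ror1 was most like Gpc6, Tmem26 and Sema5a (0.92, 0.90 and 0.89), and Celsr1 most like Numa1, Sorl1 and Pcnt (0.94, 0.92 and 0.90). Wnt11 was most like Snrnp40, Gtf3a and Nsun2 (0.83 each) and Dvl2 most like S1pr2, Kctd7 and Gpam (0.87, 0.83 and 0.78). For Vangl2 the leading gene was Phf21a with 0.96, which was 0.77 without that heart.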

How the data were processed

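RNA of 20 hearts was sequenced as mRNA libraries. The authors deposited 1 table of log2 normalized counts with 1 value per gene and heart, normalized for library size over all hearts. The submitters' processing notes name Trimmomatic 0.36, STAR 2.5.2a, RSEM 1.2.31, DESeq2 and the build GRCm38, and the transformation and strand setting are not given in the sources used here. Depth is unknown from such values, so no counting intervals are given and precision rests on the spread between hearts. Low genes are drawn towards their mean in the deposited values, as a regularized log does, so their differences may be understated.

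The members and lists were chosen with earlier results of these data known. Genes were named with GENCODE M39, and lengths per kb are union exon lengths of that release. The 15304 genes whose normalized count averaged 10 or more entered 1 linear model over all 20 hearts with a mean for each genotype (limma 3.58.1 under R 4.3.3, with an intensity trend in eBayes), tested two-sided at a Benjamini-Hochberg adjusted p under 0.05 over all genes tested. DESeq2, the study's tool, needs counts and was not used here. Named genes were the 10 members, their listed relatives, every gene of the pathway list past the threshold and the 3 genes most like each member, of which some are not reported here. Gene positions and promoters are from RefSeq (GRCm38.p6), and motifs were searched on both strands. The fit was tested on simulated data for Dp1Tyb versus WT. There it called 25 of 200 genes shifted by 0.1 log2 units and 194 of 200 shifted by 0.3, so differences near 0.1 were mostly missed. Alternatives were other filters, normalizations and limma settings, lane, weights per heart and leaving out each heart. Leaving out both lowest-weight hearts together, and the values of listed genes without Dp1TybDyrk1a+/+/- replicate 2, were chosen after seeing the data.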

Additional observations from a re-analysis of the deposited data

Results flagged for a closer look

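In 5 of 30 groups of hearts (10 genes in 3 genotypes) the heart at one end lay farther from its nearest neighbour than the limit of Dixon's test at 95% allows. Chance alone would mark about 1 in 20 groups. Dp1TybDyrk1a+/+/- replicate 2 had a Vangl1 value of 9.85 on the log2 scale, against 9.60 to 9.64 in the other 4 hearts of its group, and a Vangl2 value of 9.91 against 9.53 to 9.61. The same heart had the lowest array weight, 0.094, and the highest mean level of mitochondrial transcripts, and the part of these in its values was not tested. Dp1TybDyrk1a+/+/- replicate 5 had the lowest Wnt5a value of its group, 11.02 against 11.15 to 11.20. Dp1TybDyrk1a+/+/- replicate 1 had the highest Dvl2 value, 9.23 against 9.04 to 9.09. WT replicate 9 had the lowest Prickle1 value, 10.58 against 10.68 to 10.72.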

How the results depend on the processing

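No paired analysis was possible because the labels give no litters and their replicate numbers were assigned in accession order. Wnt11, the 1 gene of the 9 with a call in the main fit, did not change sign in any alternative of that comparison. Dvl2 passed in Dp1Tyb versus Dp1TybDyrk1a+/+/- only without replicate 1 of the latter, and its difference was -0.024 within lane 3. The 1 called gene of the 9, Wnt11 in Dp1Tyb versus WT, fell to 0 with no filter on low values (adjusted p = 0.055 by limma), and leaving out 1 heart gave 0 to 1. For the 9 genes the count ranged from 0 to 1 with 1 heart left out in Dp1Tyb versus Dp1TybDyrk1a+/+/- (1 without Dp1TybDyrk1a+/+/- replicate 1) and with both duplication genotypes together (1 without replicate 2 or 5 of that group), and for the latter it was 1 with array weights and 1 with both lowest-weight hearts left out.

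Counts over the 97 genes of the pathway list include Prickle2, whose call supports nothing. In Dp1TybDyrk1a+/+/- versus WT the only call was that of Prickle2, so this count and its changes are no test. Over the 97, counts were 3 in Dp1Tyb versus WT, 1 in Dp1TybDyrk1a+/+/- versus WT, 0 in Dp1Tyb versus Dp1TybDyrk1a+/+/- and 2 with both together. Array weights raised them to 7, 3, 9 and 5, and calls over all genes to 9.29%, 2.23%, 8.15% and 4.46%. Leaving out 1 heart gave 2 to 4, 0 to 2, 0 to 3 and 1 to 3. Leaving out both lowest-weight hearts gave 1 in Dp1Tyb versus Dp1TybDyrk1a+/+/- (Ptk7). The causes were not tested. With lane as a covariate, calls over all genes went from 178 to 29 in Dp1Tyb versus Dp1TybDyrk1a+/+/-, from 109 to 93 in Dp1TybDyrk1a+/+/- versus WT and from 471 to 461 in Dp1Tyb versus WT. With only the groups compared in the fit they were 3, 98 and 779 in the same order. The share of 1.16% in the direct comparison thus depended on a spread estimated with the WT hearts.

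Of 120 within-lane differences of single genes, 23 moved by more than the spread between hearts. Lanes hold as few as 1 heart of a mutant genotype.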

Other observations

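Dp1TybDyrk1a+/+/- hearts had 11 of 14 cytoskeletal effectors of the pathway above WT, with a median log2 difference of 0.043, and without replicate 2, the heart that stood apart, 7 of 14 with a median of 0.0033. In Dp1Tyb hearts 4 of 14 lay above WT, with a median of -0.022. Of all genes tested 47.4% lay above WT in the former genotype and 48.5% in the latter. None of these 14 genes, which include Rhoa, Rac1 and Rock1, passed limma's adjusted threshold in either comparison. Of the 12 outflow regulators, such as Isl1 and Hand2, 6 lay above WT in Dp1Tyb and 5 in Dp1TybDyrk1a+/+/- hearts, with medians of -0.0054 and -0.051 (4 genes and -0.091 in the latter without replicate 2). The secreted antagonist Wif1 differed by -0.10 and -0.15 from WT in the mutant genotypes and did not pass (chosen after its values were seen).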
